A study of Homo sapiens with 30 samples.

Results

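Mitochondrial ribosomal protein genes were taken as every entry whose symbol is MRPL or MRPS followed by digits, with an optional letter. The rule found 76 symbols. The RNA-seq table held 78 such entries (46 MRPL and 29 MRPS symbols) among its 18132 entries, and the PRO-seq table held 73 among 20582. MRPL symbols name proteins of the large subunit and MRPS symbols proteins of the small subunit of the mitochondrial ribosome. By structure, MRPS30 and MRPS18A belong to the large subunit, and MRPS36 is known as a part of the oxoglutarate dehydrogenase complex.

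The mitochondrial ribosome translates the few messenger RNAs that mitochondrial DNA encodes, all of them for subunits of the respiratory chain and of ATP synthase. Its ribosomal RNAs come from mitochondrial DNA, while all its proteins are encoded in the nucleus, made in the cytosol and imported. Many of the proteins have counterparts in bacterial ribosomes, and others are found in mitochondrial ribosomes alone. MYC, a transcription factor that binds with MAX to sites such as CACGTG (the E-box), is known to raise the expression of many nuclear genes for mitochondrial proteins.

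The data came from G401, an established malignant rhabdoid tumour cell line, which lacks SMARCB1. DTMYC cells are G401 cells in which a lentivirus supplies MYC with an N-terminal HA-FKBP12F36V tag and from which the endogenous MYC gene was removed by CRISPR-Cas9, so every DTMYC group, DMSO included, depends on the tagged protein. The compound dTAG47 binds the tag and directs the fusion protein to degradation, DMSO is its solvent, and parental cells carry no tag. Whether DTMYC cells are 1 clone is not given in the sources used here.

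RNA-seq at 24 h covered DTMYC cells in 500 nM dTAG47, DTMYC cells in DMSO, parental cells in 500 nM dTAG47 and parental cells in DMSO, with 3 libraries each. In DTMYC cells, PRO-seq at 4 h covered dTAG47 and DMSO with 2 libraries each. MYC ChIP-seq at 4 h covered dTAG47 with 3 libraries and DMSO with 2, numbered 1 and 3. ATAC-seq at 24 h covered dTAG47 and DMSO with 3 libraries each. The labels do not say that libraries came from separate cultures, so the p-values speak to variation from library to library, which may be technical.

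RNA-seq libraries held 27854207 to 54633745 counts. PRO-seq libraries held 18209879 to 23256313 counts in gene bodies and 1216928 to 1632084 in promoter-proximal regions. SMARCB1 had 0 and 0 gene body counts in dTAG47 and 0 and 2 in DMSO. MYC RNA averaged 1410 ± 64.7 CPM in DTMYC cells in dTAG47 and 1370 ± 46.2 CPM in DTMYC cells in DMSO, against 235 ± 7.8 CPM in parental cells in dTAG47 and 235 ± 28.2 CPM in parental cells in DMSO (SD, n = 3 each), and RNA does not measure the degraded protein. CPM stands for counts scaled by effective library size to a common total. The 4 haematopoietic markers measured summed to at most 0.64 CPM in any library. The 5 epithelial markers summed to 4600 to 6550 CPM, nearly all from KRT8 and KRT18. EPCAM, CDH1 and PAX8 each had at most 5.18 CPM in any library. The 4 neuronal markers measured summed to 6.02 to 7.74 CPM, mostly from TUBB3. In bulk samples, fewer cells of a type and less RNA per cell cannot be told apart.

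Members were expressed over a wide range. Per kilobase of annotated length, the highest large-subunit levels in DTMYC cells in DMSO were those of MRPL37 (78.8 ± 3.98 CPM per kb), a protein found in mitochondrial ribosomes only, of MRPL3 (76.9 ± 1.4 CPM per kb), whose bacterial counterpart lies near the peptidyl transferase centre, and of MRPL51 (67.2 ± 3.75 CPM per kb, SD, n = 3). The highest small-subunit levels were those of MRPS34 (122 ± 13.1 CPM per kb), MRPS26 (63.3 ± 5.43 CPM per kb) and MRPS12 (53.7 ± 4.8 CPM per kb, SD, n = 3). MRPS34 and MRPS26 are proteins of mitochondrial ribosomes only, and MRPS12 is the counterpart of a bacterial protein of the decoding centre. MRPL37 and MRPL3 differed by less than the spread of MRPL37 between libraries.

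The lowest levels were those of MRPL38 (0.975 ± 0.0525 CPM per kb), MRPL53 (1.86 ± 0.128 CPM per kb) and MRPL46 (2.9 ± 0.042 CPM per kb) in the large subunit, and of MRPS24 (0.305 ± 0.0997 CPM per kb), MRPS18B (0.328 ± 0.0813 CPM per kb) and MRPS18C (3.88 ± 0.212 CPM per kb) in the small subunit (SD, n = 3). MRPL38, MRPL53, MRPS24 and MRPS18C overlap other entries of the count table, so their reads may be divided between entries. MRPS18B had 0 PRO-seq counts in every library and in both regions, and whether its reads were counted in full was not tested. Both entries for MRPL30, a second entry for MRPS17 and a second for MRPS36 had too few counts to be tested, which left 74 entries tested (45 MRPL and 29 MRPS). In PRO-seq gene bodies of DTMYC cells, MRPL30 averaged 57.5 ± 5.17 CPM in dTAG47 and 67.7 ± 3.83 CPM in DMSO (SD, n = 2 each). Its RNA-seq entries overlap each other, and whether its reads were counted in full was not tested. MRPL45, whose product lies at the exit tunnel and the inner membrane, was in the PRO-seq table alone, with 0 counts.

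The response of these genes to dTAG47 was read first in RNA at 24 h. In DTMYC cells 13 of the 74 members fell in dTAG47 relative to DMSO and none rose (edgeR quasi-likelihood test, Benjamini-Hochberg adjusted p under 0.05 over all 13401 genes tested). Over all genes tested, 4.44% fell and 4.27% rose. The fold changes were small, between -0.53 and -0.30 on the log2 scale among the 13. Of all members, 68 of 74 had a negative log2 fold change, with a median of -0.18, against 5919 of 13401 genes and a median of 0.03.

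Per library, 40 of the 74 members lay lower in every dTAG47 library than in every DMSO library of DTMYC cells, against 20% of all genes tested. Another 3 members (MRPL53, MRPS33 and MRPS6) lay higher in every dTAG47 library, against 3373 of all 13401 genes tested. Their log2 fold changes of 0.27, 0.10 and 0.15 did not pass the threshold. The summed level of the 74 members was 4073, 4079 and 4178 CPM in the dTAG47 libraries and 4726, 4605 and 4875 CPM in the DMSO libraries of DTMYC cells. In parental cells the sums were 4875, 4897 and 4704 CPM in dTAG47 and 5595, 5514 and 5009 CPM in DMSO, where library 3 was the lowest.

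Of the large subunit, 5 of 45 MRPL members fell. MRPL36, the counterpart of a small bacterial protein that joins the large subunit late, had 28.3, 27 and 29.6 CPM in dTAG47 against 40.3, 37 and 45 CPM in DMSO in DTMYC cells (log2 fold change -0.53, SE 0.09, adjusted p = 0.00475). MRPL12, the mitochondrial L7/L12 stalk protein, which recruits translation factors, had 29.8, 27.9 and 26.3 CPM in dTAG47 against 42.5, 37.1 and 42.1 CPM in DMSO (log2 fold change -0.53, SE 0.11, adjusted p = 0.0137). In both genes the 3 dTAG47 libraries were all below the 3 DMSO libraries.

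MRPL4, whose bacterial counterpart lines the exit tunnel, had 46.4, 43.6 and 44.1 CPM in dTAG47 against 59.7, 55.5 and 66.6 CPM in DMSO (log2 fold change -0.44, SE 0.08, adjusted p = 0.00924). MRPL3 had 164, 164 and 174 CPM in dTAG47 against 207, 213 and 207 CPM in DMSO (log2 fold change -0.32, SE 0.08, adjusted p = 0.0317). MRPL2, which like MRPL3 lies near the peptidyl transferase centre, had 29.5, 31.5 and 31.3 CPM in dTAG47 against 39, 35.7 and 41.7 CPM in DMSO (log2 fold change -0.33, SE 0.09, adjusted p = 0.0404). The groups did not overlap in any of these 3 genes. None of the 16 tested large-subunit members known from mitochondrial ribosomes alone fell, against 5 of 29 with a bacterial counterpart, and their median log2 fold changes were -0.14 and -0.17. In the small subunit by structure the counts ran the other way, with 4 of 10 members of mitochondrial ribosomes alone and 3 of 16 with a bacterial counterpart falling, and neither difference was tested.

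Of the small subunit, 8 of 29 MRPS members fell, one of which, MRPS30, belongs to the large subunit by structure. MRPS2, a protein with a bacterial counterpart at the junction of head and body, had 63.6, 56 and 58.4 CPM in dTAG47 against 80.9, 76.9 and 92 CPM in DMSO (log2 fold change -0.49, SE 0.10, adjusted p = 0.0152). MRPS26 had 53.7, 49.9 and 49.7 CPM in dTAG47 against 72, 64.9 and 77.1 CPM in DMSO (log2 fold change -0.48, SE 0.10, adjusted p = 0.0165). MRPS27, a pentatricopeptide repeat protein, had 173, 173 and 169 CPM in dTAG47 against 214, 222 and 219 CPM in DMSO (log2 fold change -0.35, SE 0.08, adjusted p = 0.0165). The dTAG47 libraries again lay below all DMSO libraries.

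MRPS34, which is needed for assembly of the small subunit, had 103, 102 and 103 CPM in dTAG47 against 134, 120 and 149 CPM in DMSO (log2 fold change -0.39, SE 0.11, adjusted p = 0.0446). MRPS5, counterpart of a bacterial protein at the messenger RNA entry site, had 78.5, 78.8 and 77.8 CPM in dTAG47 against 96.4, 93.2 and 99.5 CPM in DMSO (log2 fold change -0.30, SE 0.07, adjusted p = 0.0196). MRPS25, a protein of mitochondrial ribosomes only, had 76.9, 73.5 and 74.2 CPM in dTAG47 against 95.3, 87.9 and 92.9 CPM in DMSO (log2 fold change -0.30, SE 0.07, adjusted p = 0.0233). In these 3 genes too the groups were apart, and MRPS34 had the widest spread among DMSO libraries.

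MRPS15, the counterpart of a bacterial protein that binds ribosomal RNA early in assembly, had 84.8, 83.7 and 85.3 CPM in dTAG47 against 108, 96 and 108 CPM in DMSO (log2 fold change -0.30, SE 0.08, adjusted p = 0.0293). MRPS30 had 81.6, 82.7 and 88.8 CPM in dTAG47 against 102, 115 and 104 CPM in DMSO (log2 fold change -0.34, SE 0.09, adjusted p = 0.0313). The spans of 6 of the 13 overlap another entry of the count table (MRPL2, MRPL12, MRPS2, MRPS5, MRPS25 and MRPS27), against 33 of all 74 tested members. MRPS34 overlaps EME2 in the GENCODE annotation, though no other entry of the count table. Whether counting used strand is not given in the sources used here, so the counts of these genes may hold reads of the neighbour. The 13 had a median GC content of 55.1% in their longest annotated transcript and the other 61 a median of 46.4%. Over all genes tested, those that fell had a median of 55% and those that were not called 48.2%, and the part of base composition in the result was not tested.

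**Figure D1:**
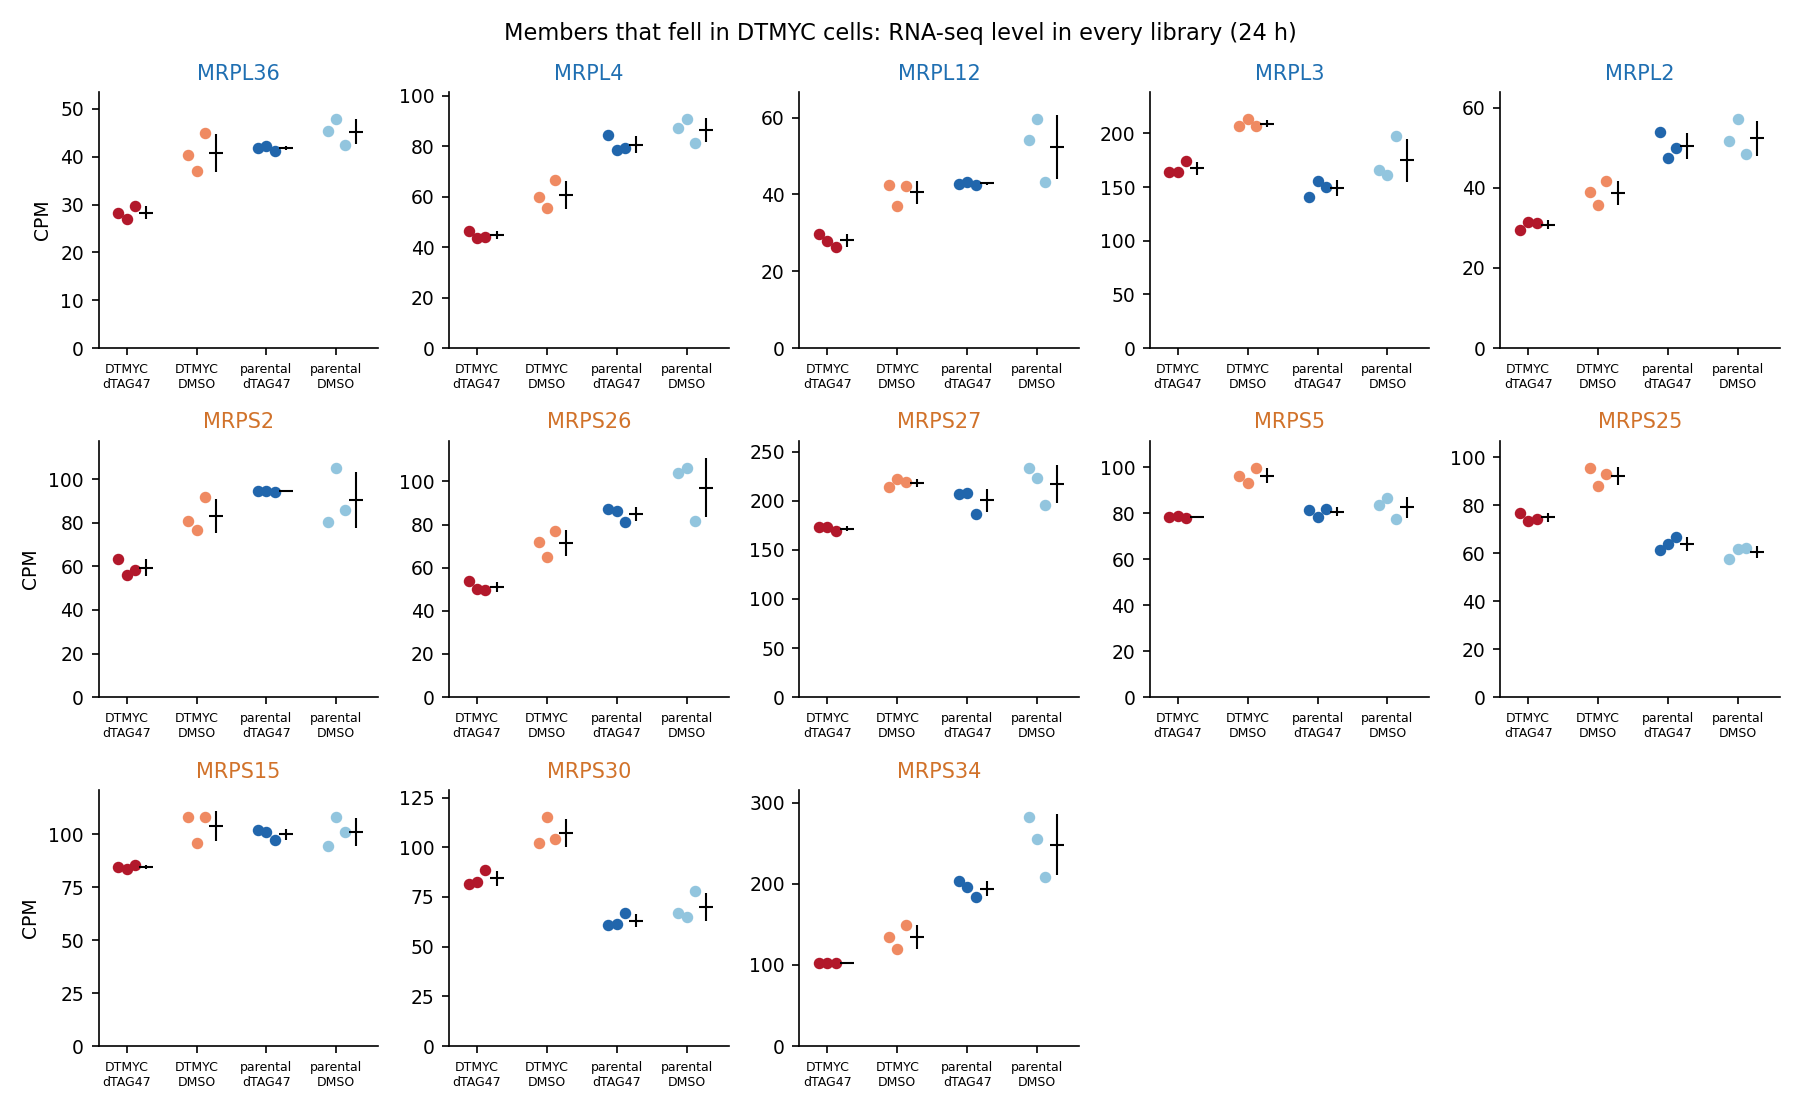
RNA-seq level (CPM, linear axis from 0) of the 13 members that fell, in DTMYC cells in dTAG47, DTMYC cells in DMSO, parental cells in dTAG47 and parental cells in DMSO at 24 h, with 1 point a library and the mean ± SD beside the points. Blue titles mark MRPL and orange titles MRPS genes, and in every panel the 3 DTMYC libraries in dTAG47 lie below the 3 in DMSO.

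The number of calls rested on single libraries. Without DTMYC dTAG47 library 2 or without DTMYC DMSO library 3, only MRPL36 passed. Without DTMYC DMSO library 1 or DTMYC dTAG47 library 3, 2 members passed (MRPL4 and MRPL36), without DTMYC dTAG47 library 1, 5 passed, and without parental dTAG47 library 2, 8 passed. Without parental DMSO library 3, which shares the estimate of spread, 39 members passed, all lower, and with the 6 DTMYC libraries fitted alone 44 passed, all lower. The calls over all genes moved as well. The fit of all libraries called 572 genes higher and 595 lower, and fits without a DTMYC library called 329 to 636 in all. Without parental DMSO library 3, 3951 genes passed (2240 lower), and with the DTMYC libraries alone 4593 (2509 lower).

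By symbol, the median log2 fold change in DTMYC cells was -0.15 for MRPL and -0.20 for MRPS members. All dTAG47 libraries lay below all DMSO libraries in 19 of 45 MRPL and 21 of 29 MRPS members. With MRPS30 and MRPS18A moved to the large subunit and MRPS36 left out, 6 of 47 large-subunit and 7 of 26 small-subunit members fell, with medians of -0.17 and -0.19. Members with a bacterial counterpart and members of mitochondrial ribosomes alone had the same median of -0.18, with 8 of 45 and 4 of 26 falling. The large-subunit share of the members' summed level in DTMYC cells was 60 ± 0.321% in dTAG47 and 59.1 ± 0.0577% in DMSO (SD, n = 3 each). In parental cells the share went the other way, at 61.3 ± 0.1% in dTAG47 and 62.1 ± 0.173% in DMSO (SD, n = 3 each). Whether the subunits differ in response was not tested.

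dTAG47 in parental cells, which carry no tag, was the comparison for effects of the compound itself. No member passed the threshold there, and over all genes 0.127% were called. At an unadjusted p under 0.05, 18 members (24.3%) were lower and none higher, against 1143 (8.53%) and 931 of all 13401 genes tested. DESeq2 called 4 members, all lower, among 310 genes in all. The log2 fold change was negative in 62 of 74 members, with a median of -0.13, against -0.05 over all genes tested. The median was -0.16 for MRPL and -0.07 for MRPS members. In 15 members (13 MRPL and 2 MRPS) the dTAG47 libraries were all lower than the DMSO libraries, against 6.63% of all genes tested.

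The members with the smallest p in parental cells belong to the large subunit. MRPL47, whose yeast counterpart lies at the tunnel exit, had 37.3, 39.6 and 42.1 CPM in dTAG47 against 51.2, 49.3 and 56.3 CPM in DMSO (log2 fold change -0.40, SE 0.08, edgeR adjusted p = 0.0643). MRPL13, with a bacterial counterpart, had 34.9, 39.5 and 37.1 CPM in dTAG47 against 46.7, 44.5 and 55.2 CPM in DMSO (log2 fold change -0.39, SE 0.09, edgeR adjusted p = 0.0937). MRPL39, a protein of mitochondrial ribosomes only, had 23.9, 24.1 and 25.4 CPM in dTAG47 against 30, 28.4 and 32.9 CPM in DMSO (log2 fold change -0.32, SE 0.08, edgeR adjusted p = 0.12). The groups did not overlap in any of the 3, and DESeq2 called all 3. In DTMYC cells their log2 fold changes were -0.13, -0.10 and -0.22, none past the threshold. Without parental DMSO library 3, 32 members passed in parental cells, 30 of them lower, and without parental DMSO library 2, 3 passed. Over all genes those fits called 2718 (1478 lower) and 353 (154 lower).

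The interaction, the DTMYC response minus the parental response, tests whether the responses differ. No member passed it, and 1.19% of all genes were called. At an unadjusted p under 0.05, 8 members (10.8%) had the lower and 3 the higher response in DTMYC cells. Over all 13401 genes tested, 1107 (8.26%) had the lower and 1467 the higher response, so the lower share was near that background. DESeq2 called MRPS25 and MRPS2, among 556 genes in all. The median interaction was -0.03 for the members and 0.08 for all genes tested. It was 0.01 for MRPL and -0.17 for MRPS members. The smallest p belonged to MRPS25 (interaction -0.38, SE 0.10, edgeR adjusted p = 0.0811), MRPS2 (-0.55, SE 0.15, edgeR adjusted p = 0.0816) and MRPL36 (-0.41, SE 0.12, edgeR adjusted p = 0.102). MRPS2 had 94.5, 94.8 and 94.4 CPM in dTAG47 and 80.4, 105 and 86.1 CPM in DMSO in parental cells, and MRPS25 had 61.2, 63.6 and 66.7 CPM in dTAG47 and 57.4, 61.7 and 62.2 CPM in DMSO. MRPS34 stood at the other end of the 13, with an interaction of -0.04 (SE 0.15), since it had 203, 196 and 184 CPM in dTAG47 and 282, 255 and 208 CPM in DMSO in parental cells. Without parental DMSO library 3 the interaction called 12 members, 10 of them with the lower response in DTMYC cells. That fit called 2417 genes in all, 1295 of them with the lower response.

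**Figure D2:**
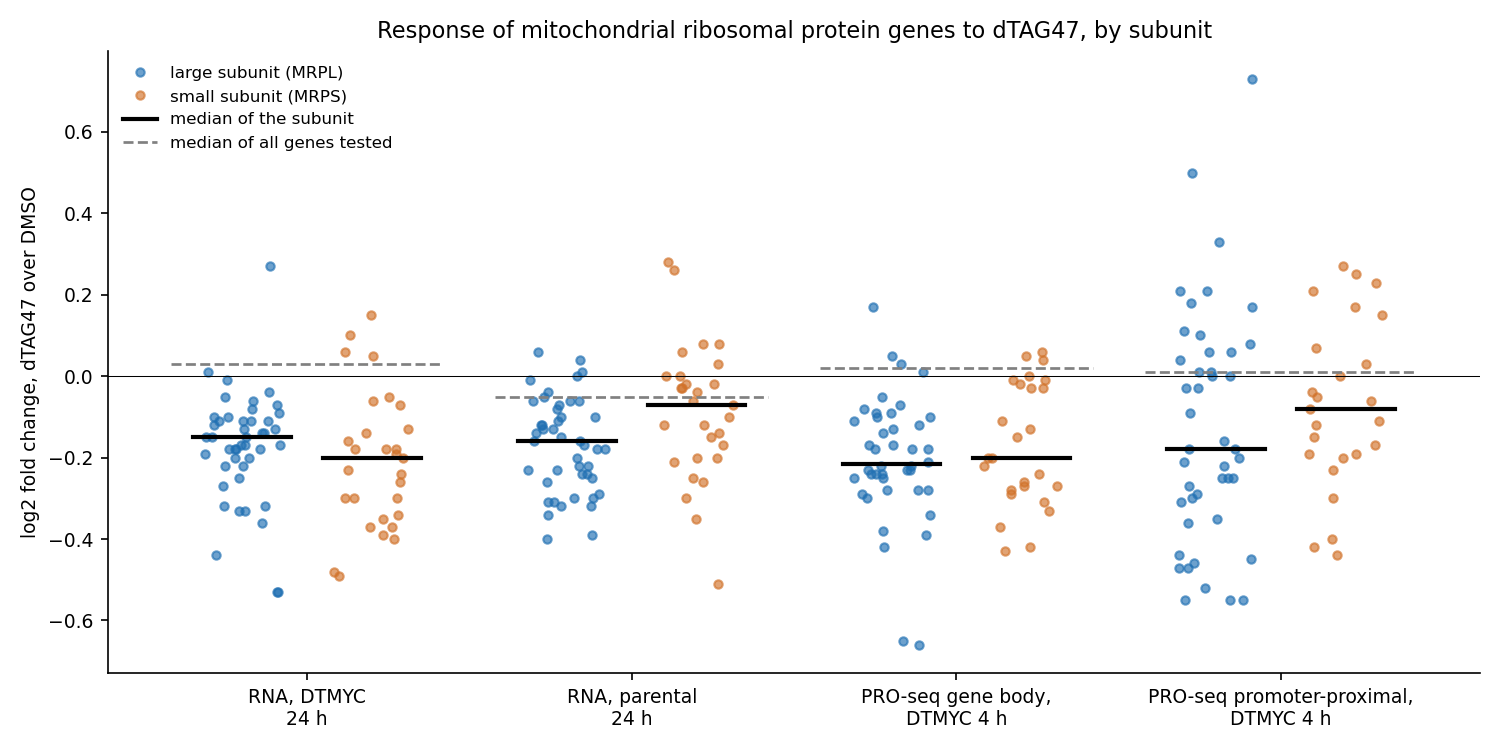
log2 fold change in dTAG47 over DMSO of each tested member in RNA-seq of DTMYC cells, RNA-seq of parental cells, PRO-seq gene bodies and PRO-seq promoter-proximal regions (1 point a member, spread sideways at random). Blue points are MRPL, orange points MRPS, black bars the median of each subunit and dashed lines the median of all genes tested. The subunit medians lie below the median of all genes in each of the 4 comparisons, at -0.15 and -0.20 in DTMYC RNA.

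PRO-seq counts polymerases engaged on the DNA, and at 4 h it read transcription of the members in DTMYC cells. RNA-seq was done at 24 h alone, and parental cells had no PRO-seq. Which changed first, and how parental cells responded at 4 h, was therefore not tested. In gene bodies no member passed the threshold, nor did any other gene (0% of 13397 called by edgeR). DESeq2 called 0 members and 66 genes in all. A fit that pairs same-numbered libraries gave other counts, here and in promoter-proximal regions, which are given with the alternative fits. The log2 fold change was negative in 61 of 68 members tested, with a median of -0.21, against 6257 of 13397 genes and a median of 0.02. The medians were -0.21 for MRPL and -0.20 for MRPS members. Both dTAG47 libraries lay below both DMSO libraries in 39 of 68 members, against 19.3% of genes, and 7 members were lower at an unadjusted p under 0.05, against 5.92%.

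The 7 were MRPS25, MRPS30, MRPL12, MRPS35, MRPS5, MRPL3 and MRPS27. MRPS25 had 60.4 and 53.9 CPM in dTAG47 against 78.1 and 75.1 CPM in DMSO (log2 fold change -0.42, SE 0.10, edgeR adjusted p = 0.421). MRPS30 had 16.2 and 14.9 CPM in dTAG47 against 21.6 and 20.3 CPM in DMSO (log2 fold change -0.43, SE 0.13, edgeR adjusted p = 0.447). MRPL12 had 30.6 and 30.2 CPM in dTAG47 against 44.6 and 36.6 CPM in DMSO (log2 fold change -0.42, SE 0.13, edgeR adjusted p = 0.451). In each of these the groups were apart, by more for MRPS25 than for MRPL12, whose DMSO libraries differed from each other.

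All but MRPS35 of these 7 were among the 13 that fell in RNA. All 13 had a negative gene body log2 fold change, between -0.65 and -0.20, with a median of -0.33. The 54 other members tested in both assays had a median of -0.16, and 47 were negative. Genes that fell in RNA were likewise lower in gene bodies across the table, since 97.3% of 551 had a negative value and their median was -0.36, so the members were near that background. Across the 67 members tested in both assays the Pearson correlation of the RNA and gene body log2 fold changes was 0.611, and across 11237 genes it was 0.528, where the points share libraries and genes are not independent replicates.

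**Figure D3:**
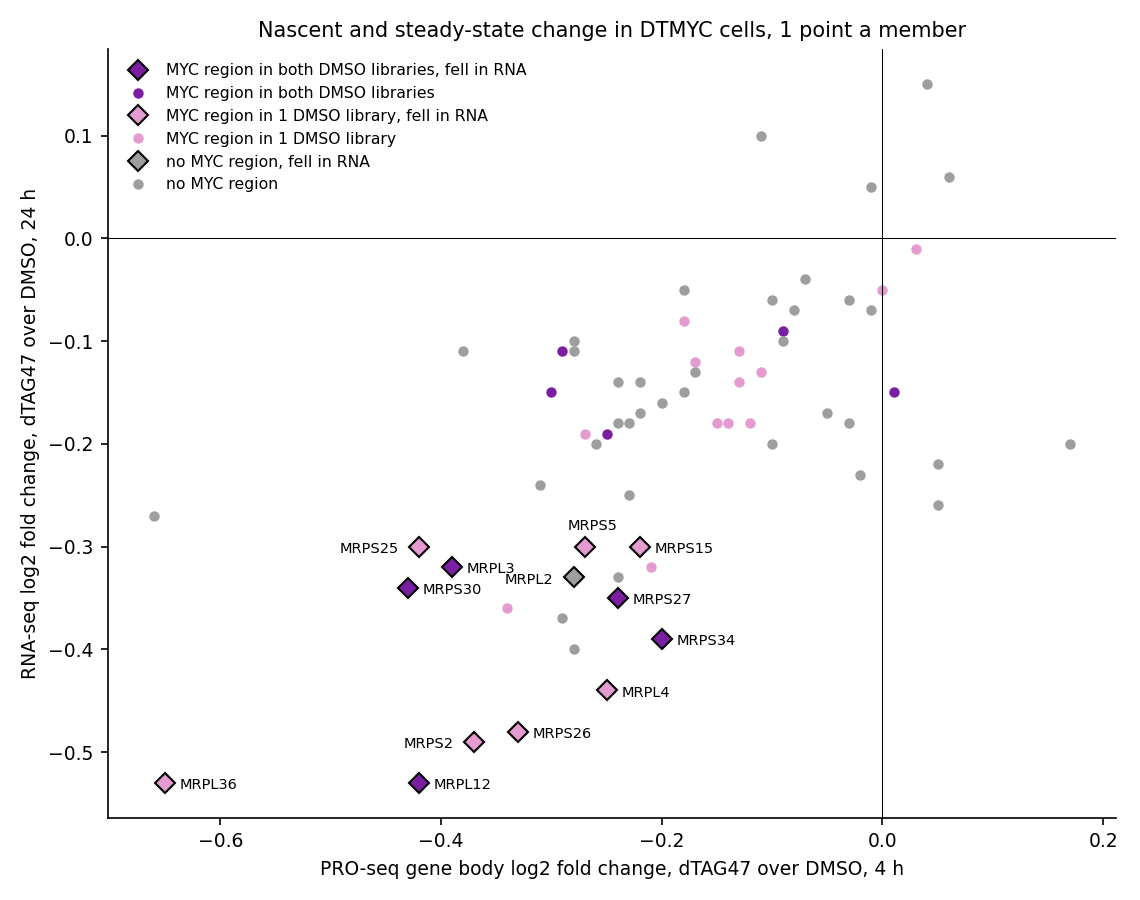
PRO-seq gene body log2 fold change at 4 h (horizontal) against RNA-seq log2 fold change at 24 h (vertical), dTAG47 over DMSO in DTMYC cells, for the 67 members tested in both, coloured by the MYC region at the start site. Diamonds with names are the 13 members that fell in RNA, all of them left of 0 in gene bodies.

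In promoter-proximal regions, where polymerase pauses soon after the start, no member and no other gene passed the threshold (0% of 10226 called by edgeR). DESeq2 called 0 members and 2 genes in all. The log2 fold change was negative in 44 of 69 members, with a median of -0.12 against 0.01 for all genes, and the medians were -0.18 for MRPL and -0.08 for MRPS members. At an unadjusted p under 0.05, 7 members were lower, against 3.76% of genes, and 2 were higher, against 277 of 10226 genes. MRPL22, the counterpart of a bacterial exit tunnel protein, had 296 and 256 CPM in dTAG47 against 193 and 198 CPM in DMSO (log2 fold change 0.50, SE 0.17, edgeR adjusted p = 0.661). MRPL28, with a bacterial counterpart, had 45.5 and 46.8 CPM in dTAG47 against 25.3 and 30.4 CPM in DMSO (log2 fold change 0.73, SE 0.26, edgeR adjusted p = 0.661), from 40 to 65 counts a library. MRPL32, a protein whose maturation by a mitochondrial protease precedes its assembly, had 95.2 and 83.6 CPM in dTAG47 against 132 and 129 CPM in DMSO (log2 fold change -0.55, SE 0.19, edgeR adjusted p = 0.661). With the scaling of gene bodies applied to these regions, all genes shifted to a median of -0.17, and the medians became -0.35 for MRPL and -0.27 for MRPS members.

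MYC ChIP-seq at 4 h located the tagged protein. The labels name MYC as the antibody, while the names of the deposited lists say HA, the epitope in the tag. The lists held 408, 7 and 193 peaks in dTAG47 and 4010 and 1519 in DMSO. A region, the union of overlapping DMSO peaks, was assigned to a gene when its midpoint lay within 1000 bases of a start site. In any DMSO library 31 of the 74 tested members had such a region, against 25.8% of genes tested, and in both libraries 11 had one, against 8.07%. By subunit, 19 of 45 MRPL (42.2%) and 12 of 29 MRPS members (41.4%) had a region in any library, and 8 (17.8%) and 3 (10.3%) in both. The difference between the subunits was not tested.

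The 11 members with a region in both libraries were MRPL3, MRPL12, MRPL15, MRPL17, MRPL18, MRPL40, MRPL48, MRPL51, MRPS27, MRPS30 and MRPS34. MRPL3 had the highest peak score of all members, with 185 in dTAG47 library 1 and 81 in dTAG47 library 3, against 603 and 280 in the DMSO libraries. The score is the authors' and equals 10 times the -log10 q of the peak. MRPL15 had a score of 113 in dTAG47 library 1, against 215 and 125 in DMSO, and MRPL17 had 70 in dTAG47 library 1, against 53 and 50 in DMSO. MRPL43, with a region in DMSO library 1 alone (score 162), had 82 in dTAG47 library 3. No other member region overlapped a dTAG47 peak. Of the 32 regions at start sites of these 31 members, 3, 0 and 2 were overlapped in dTAG47 libraries 1, 2 and 3, against 8.15%, 0% and 3.21% of 3057 regions at start sites of all genes tested.

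**Figure D4:**
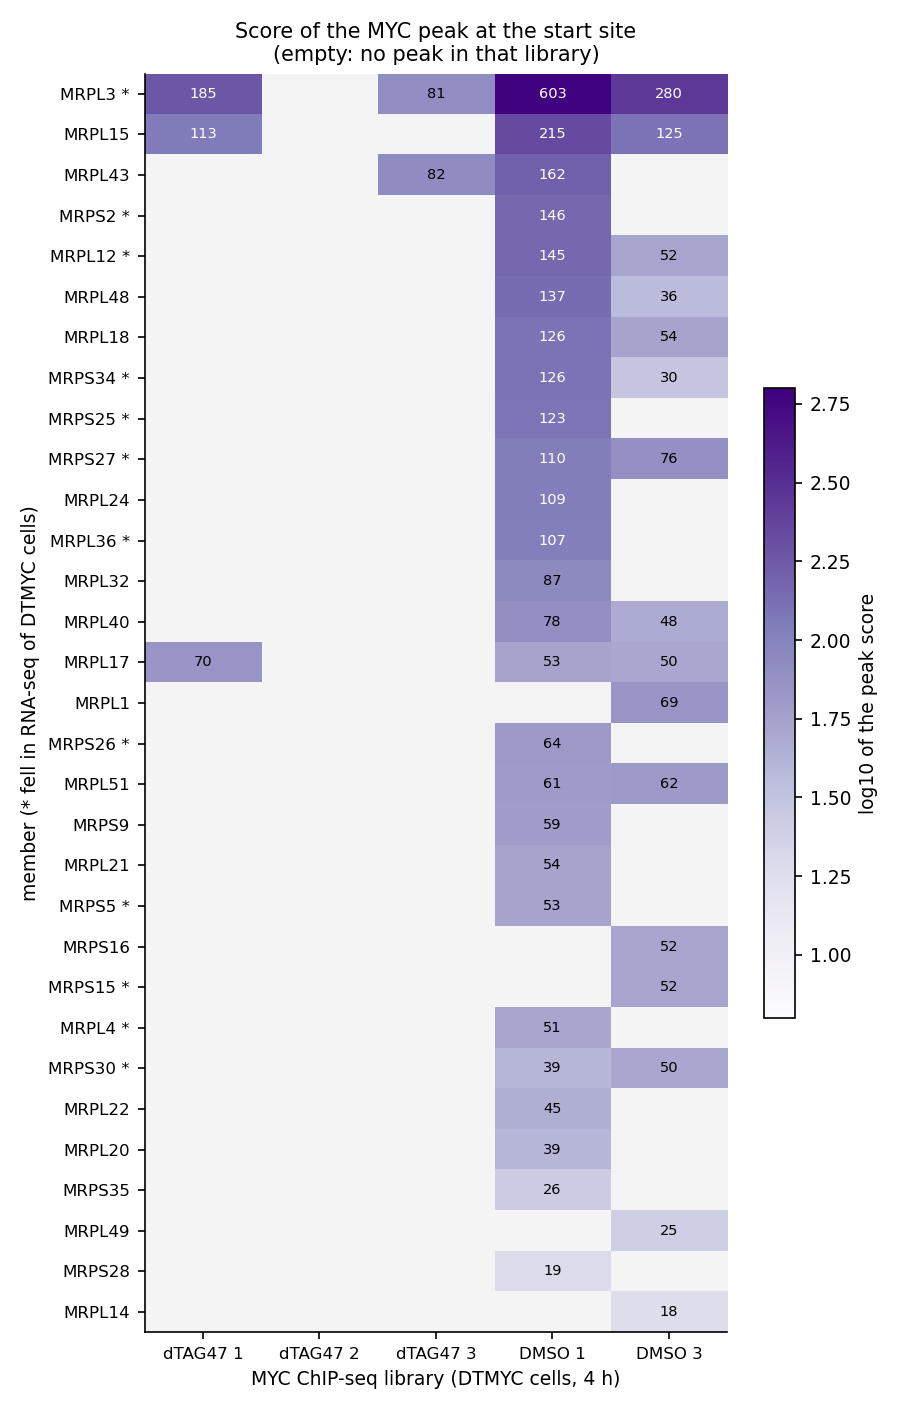
Score of the MYC peak at the start site (printed in each cell, colour on a log10 scale) of the 31 tested members with a region in DMSO, in the 3 dTAG47 and 2 DMSO libraries of DTMYC cells at 4 h. Stars mark the members that fell in RNA, and 4 members keep a peak in some dTAG47 library.

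Calls in RNA were then set beside the regions, as counts with no test. Of the 13 that fell, 12 had a region in some DMSO library and 5 in both, and MRPL2 had none. Of the 61 others, 19 had a region. The start of MRPL36, which fell, lies 41 bases from that of NDUFS6 on the opposite strand, so its region and E-box may belong to either gene. Over all genes tested, 60.8% of those that fell had a region and 24.1% of those that did not fall. Seen from the regions, 5 of 11 members with a region in both libraries fell, 7 of 20 with a region in 1 library and 1 of 43 with none, against 15.9%, 8.28% and 2.38% of all genes tested. The median log2 fold changes of these member groups were -0.19, -0.19 and -0.17, and those of all genes -0.14, -0.04 and 0.07. Of the 11, MRPL51 had a log2 fold change of 0.01 (SE 0.08) and MRPL40 of -0.09 (SE 0.08), and MRPL15, MRPL17, MRPL18 and MRPL48 lay between -0.19 and -0.11, none past the threshold.

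The E-box CACGTG, which reads the same on both strands, was present in 9 of the 32 member regions (28.1%), against 41.1% of regions at start sites of all genes tested. The median lengths were 581 and 555 bases. In regions of both DMSO libraries it was present in 6 of 11 member regions (54.5%), against 61.1%. Regions of MRPL15, MRPL18, MRPL22, MRPL48 and MRPL49, which did not pass in DTMYC RNA, held it. Of the members that fell, MRPL3, MRPL12, MRPL36 and MRPS27 held it. Their 30-base windows are shown on the gene's strand, because these are the E-boxes in regions of members that fell. The E-box lay 300 bases from the region midpoint for MRPL12 and 260 bases for MRPS27, and whether MYC binds at these sites was not tested. Capitals mark the E-box. The windows lie in hg19 at chr3:131221732-131221761 (minus strand, 35 bases after the nearest start site), chr17:79671021-79671050 (plus strand, 638 bases after), chr5:1799990-1800019 (minus strand, 5 bases after) and chr5:71616463-71616492 (minus strand, 4 bases before).
MRPL3: ggctactgcgtcCACGTGgcggtggcgtgg
MRPL12: gctgcaaataaaCACGTGgctttctaaggc
MRPL36: acgtgggcacgcCACGTGaccccccccccc
MRPS27: caccactgcaccCACGTGcaactagagggc

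The bases beside the E-box differ among the 4 windows, and MRPL36 has a run of cytosines after it. Regions of MRPS26, MRPS34 and MRPL3 held CCGGAAG, a sequence of the kind ETS family factors bind, searched on both strands. It was in 10 of 32 member regions (31.2%), against 26.4% of regions at start sites of all genes tested. One window from each is shown because MRPS26 and MRPS34 fell with a MYC region but no E-box in it, and MRPL3 has both. The regions of MRPL4, MRPS2, MRPS5, MRPS15, MRPS25 and MRPS30, which also fell, held neither sequence. Capitals mark CCGGAAG. The windows lie in hg19 at chr20:3026650-3026679 (minus strand), chr16:1823188-1823217 (plus strand) and chr3:131221830-131221859 (minus strand).
MRPS26: cgccaccgtgccCCGGAAGcggcgcgggga
MRPS34: gttcggtcgcggCCGGAAGcgaggaagagg
MRPL3: ttgtaaaacgcaCCGGAAGtgggtccggcg

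Open chromatin at the start sites was near-general. An ATAC-seq peak lay within 1000 bases of a start site in every dTAG47 library for 66 of 74 members and in every DMSO library for 67, against 80.6% and 78.8% of all genes tested. By library, 70, 66 and 71 members had a peak in dTAG47 and 72, 71 and 68 in DMSO. The number of peaks called per library ran from 29042 to 41663 in dTAG47 and from 28429 to 50983 in DMSO. The libraries with the fewest peaks in each treatment also had the fewest members with a peak, and the part of peak number in these counts was not tested.

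DTMYC and parental cells differed at many members. In DMSO 19 members were higher and 37 lower in DTMYC than in parental cells, against 36% and 37.3% of all genes tested. In dTAG47 17 were higher and 41 lower, against 37.4% and 38.9%. Of the members called in both, 15 were higher in both treatments and 34 lower in both. The median log2 fold change in DMSO was -0.31 for MRPL, -0.05 for MRPS members and 0 for all genes. Of the 45 MRPL members 26 were lower and 10 higher, and of the 29 MRPS members 11 were lower and 9 higher. The lines differ by the editing, the lentivirus and their time apart in culture, which cannot be told apart here.

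MRPS10, a small-subunit protein with a bacterial counterpart, differed most, with 60.4, 65.8 and 55.8 CPM in DTMYC cells in DMSO against 16.3, 15.6 and 28.5 CPM in parental cells in DMSO (log2 fold change 1.59, SE 0.19, adjusted p = 8.06e-06). MRPL52, of mitochondrial ribosomes only, was lower, with 45.5, 44.4 and 45.6 CPM in DTMYC cells against 96.7, 93.9 and 76.6 CPM in parental cells (log2 fold change -0.98, SE 0.09, adjusted p = 8.68e-07). MRPL50, likewise of mitochondrial ribosomes only, was higher, with 71.1, 77.2 and 69.6 CPM in DTMYC cells against 36.7, 37.7 and 45.4 CPM in parental cells (log2 fold change 0.86, SE 0.10, adjusted p = 7.01e-06). No DTMYC library overlapped a parental library in these 3 genes, and parental library 3 lay nearest to the DTMYC libraries in each.

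MRPL10, a stalk protein, averaged 54.2 ± 3.33 CPM in DTMYC cells and 95.8 ± 11.3 CPM in parental cells in DMSO (SD, n = 3 each, log2 fold change -0.82). MRPL9, with a bacterial counterpart, averaged 34.1 ± 1.29 CPM in DTMYC cells and 55.4 ± 4.21 CPM in parental cells (log2 fold change -0.70). MRPS25 was higher, with 92.1 ± 3.77 CPM in DTMYC cells and 60.4 ± 2.65 CPM in parental cells (log2 fold change 0.61). All 3 passed the threshold. In dTAG47 the same direction held for all 6 genes named for DMSO, and MRPL4 and MRPL23 joined those with the smallest p, at 44.7 ± 1.47 CPM in DTMYC and 80.7 ± 3.35 CPM in parental cells for MRPL4 (log2 fold change -0.85), and 50.9 ± 1.09 CPM in DTMYC and 103 ± 7.77 CPM in parental cells for MRPL23 (log2 fold change -1.02).

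GC content moved with the difference between the lines. Members higher in DTMYC cells in DMSO had a median GC content of 40.1% and those lower 52.1%. Over all genes tested the medians were 42.4% and 54.7%. Across the 74 members the Pearson correlation of the log2 fold change with GC content was -0.616 in DMSO and -0.687 in dTAG47, against -0.227 and -0.289 across 13245 genes, as a description with shared libraries. The part of base composition in the difference was not tested. With offsets for GC content and length, added after seeing the data, 52 members were called in DMSO, of which 39 were among the 56 of the fit without offsets, and the MRPL median was -0.16.

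**Figure D5:**
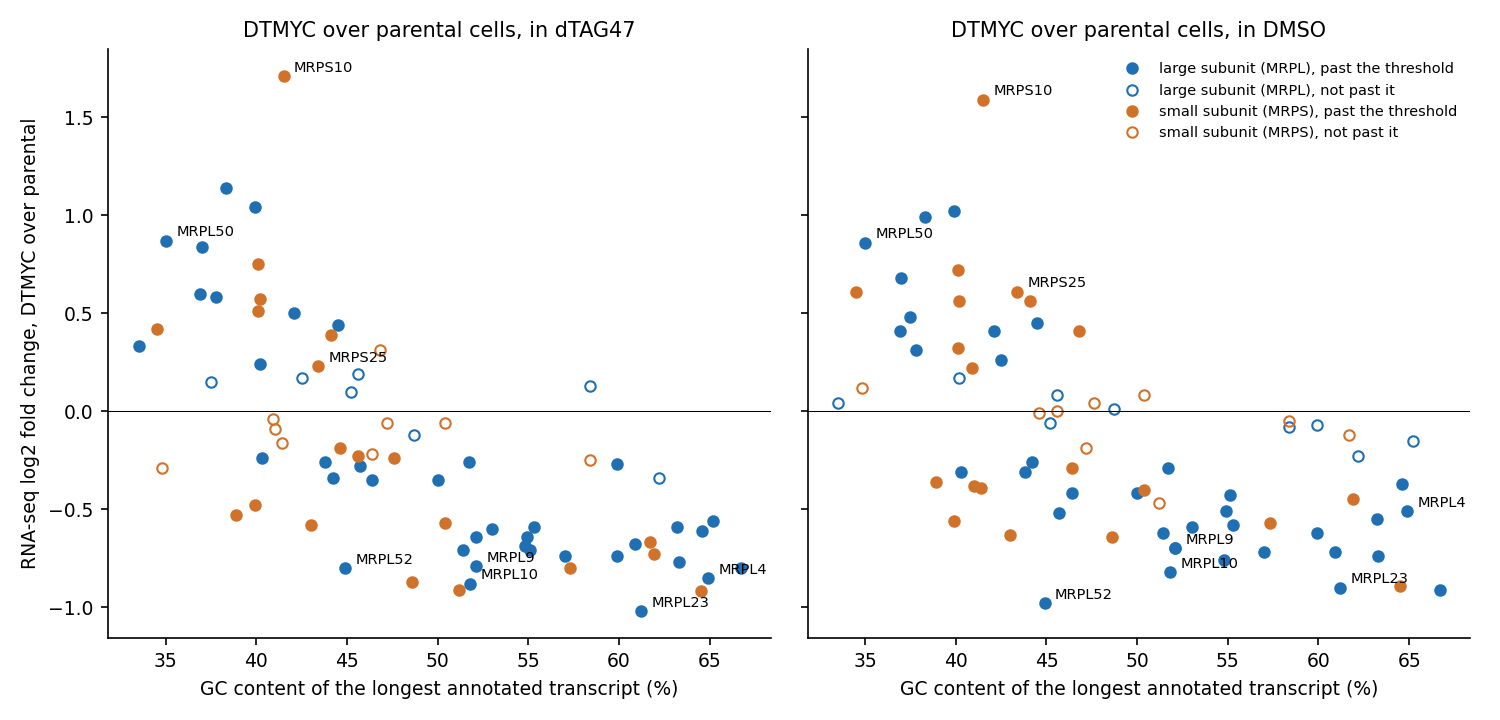
RNA-seq log2 fold change of DTMYC over parental cells (vertical) against the GC content of the longest annotated transcript (horizontal) for the 74 tested members, in dTAG47 (left) and in DMSO (right). Blue is MRPL, orange MRPS, filled points passed the threshold, and members of low GC content lie mostly above 0 and those of high GC content below.

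Other genes that serve mitochondrial translation were counted from lists, against the 4.44% of all genes tested that fell in DTMYC cells. Of 7 mitochondrial ribosomal proteins that carry other names, none passed in DTMYC cells. The most abundant were PTCD3, with 189 ± 3.73 CPM in dTAG47 and 223 ± 7.47 CPM in DMSO (log2 fold change -0.24), and AURKAIP1, with 133 ± 1.05 CPM in dTAG47 and 149 ± 10.4 CPM in DMSO (log2 fold change -0.17, SD, n = 3 each). Of 27 genes of mitochondrial ribosome assembly 5 fell and none rose, with a median of -0.19. RNMTL1, a methyltransferase of the large ribosomal RNA, had 33.9, 33.9 and 34.5 CPM in dTAG47 against 50.4, 46 and 52.2 CPM in DMSO (log2 fold change -0.54, SE 0.11, adjusted p = 0.0126). RPUSD4, a pseudouridine synthase, had a log2 fold change of -0.40, the RNA helicase DDX28 of -0.41 and the helicase DHX30 of -0.31. In these 4 genes, all past the threshold, the groups did not overlap.

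Of 20 genes of mitochondrial translation 1 (5%) fell and none rose, a share near that of all genes, with a median of -0.23. It was TUFM, the mitochondrial elongation factor that brings aminoacyl-tRNA to the ribosome, with 148, 142 and 139 CPM in dTAG47 against 201, 182 and 210 CPM in DMSO (log2 fold change -0.47, SE 0.09, adjusted p = 0.0095). Of 14 genes of mitochondrial transcription and RNA processing 6 fell and none rose, with a median of -0.30. SUPV3L1, a helicase of RNA decay, had 52.2, 56.8 and 57.7 CPM in dTAG47 against 72.1, 73.4 and 74.6 CPM in DMSO (log2 fold change -0.40, SE 0.07, adjusted p = 0.00649). TFB2M, a transcription factor of mitochondrial RNA polymerase, had a log2 fold change of -0.44, and the tRNA processing proteins TRMT10C and ELAC2 had -0.44 and -0.33, all past the threshold. In parental cells no gene of the 4 lists passed, but most log2 fold changes were negative there too. They were negative in 14 of 14 genes of mitochondrial transcription and RNA processing (median -0.25), 19 of 20 of translation (-0.15), 22 of 27 of assembly (-0.11) and 7 of 7 proteins under other names (-0.18). No gene of the lists passed the interaction, so a difference between DTMYC and parental cells was not shown for them.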

How the data were processed

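RNA-seq counts per gene and PRO-seq counts per gene body and promoter-proximal region were used as the authors deposited them, as whole numbers. The feature length, another value in the deposited RNA-seq table, served to scale levels per kilobase. Peak lists, deposited per sample, give a score per peak. Per the submitters' processing notes, the tools included cutadapt, MACS2, STAR, Bowtie2, DiffBind, featureCounts and DESeq2, and the build was hg19, with versions and roles not given in the sources used here. The IgG lists were not used here.

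The members and lists were chosen with earlier results of these data known. The test was that of edgeR 4.0.16, run in R 4.3.3 (filterByExpr by group, TMM, quasi-likelihood F-test, two-sided, Benjamini-Hochberg adjustment over all genes tested, threshold 0.05). All 12 RNA-seq libraries shared a fit of 4 group means, without a replicate block, and each PRO-seq region had its own fit. The code was tested on simulated data. Alternatives were DESeq2 1.42.0, RLE factors, library totals, no filter, a replicate block, the compared groups alone and each library left out. GC and length offsets were added after seeing the data. Intervals over libraries cover the spread between them, and the read depth of the peak lists is unknown.

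Named members were all that passed in DTMYC RNA, up to 6 of the smallest adjusted p in other comparisons (3 of the smallest p where none passed), the 3 highest and lowest levels per subunit, members with a MYC region in both DMSO libraries and, of each other list, up to 4 genes that passed in DTMYC RNA or the 2 most abundant. MRPS35, MRPL28, MRPL43, MRPS33, MRPS6 and the head-to-head pairs were chosen after their values were seen. Start sites came from GENCODE v44 lifted to GRCh37 (hg19), with 13103 of the tested genes matched. Promoters were from RefSeq GRCh38.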

Additional observations from a re-analysis of the deposited data

How the results depend on the processing

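In DTMYC RNA 13 members were called, 25 with GC and length offsets (12 of them shared), 44 with the compared groups alone, and 1 to 39 with a library left out. DESeq2 called 18, RLE factors 11, library totals 12 and no filter 12. Over all genes the offsets called 3377, the compared groups alone 4593 and fits with a library left out 329 to 3951. DESeq2 called 1362 genes, RLE factors 977, library totals 1201 and no filter 916. In parental cells 0 were called, 4 with DESeq2, 6 with the offsets, and 0 to 32 with a library left out. Over all genes those counts were 17, 310, 796 and 0 to 2718. The interaction called 0, 2 with DESeq2, 10 with the offsets, and 0 to 12 with a library left out. Over all genes it called 159, 556, 2066 and 5 to 2417. The cause of these changes was not tested. DTMYC against parental cells called 50 to 60 members in DMSO and 51 to 67 in dTAG47 with a library left out. Over all genes that comparison called 9128 to 11008 in DMSO and 9483 to 11125 in dTAG47. The MRPL median there was -0.16 in DMSO and -0.23 in dTAG47 with the offsets, against -0.31 and -0.34, and the MRPS median in DMSO ran from -0.17 to 0.02 with a library left out. The MRPL median of the interaction ran from -0.05 to 0.04. The sign of MRPL51 in DTMYC RNA, 0.01, was not fixed, at -0.01 with no filter, -0.02 with the compared groups alone and -0.04 to 0.04 with a library left out. Promoter-proximal medians under gene body scaling were -0.35 for MRPL and -0.27 for MRPS.

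With the replicate block, 14 members were called in DTMYC RNA, 0 in parental cells and 0 in the interaction. Between lines it called 56 members in DMSO and 59 in dTAG47. It called 31 members in gene bodies (all lower) and 2 in promoter-proximal regions, the counts in both PRO-seq regions being 0 without it. Over all genes the block called 1140, 5, 79, 9906 and 10284 in those RNA comparisons. In gene bodies it called 4360 genes (2226 higher and 2134 lower), and in promoter-proximal regions 262. Deviations of same-numbered libraries correlated at 0.0846, -0.011 and -0.0476 in DTMYC RNA, 0.324, 0.0483 and 0.367 in parental RNA, 0.639 in gene bodies and 0.352 in promoter-proximal regions. The labels do not say what a number marks, so no fit in the report is paired. In RNA not every pair passed 0.1, and PRO-seq, where the correlations were positive, has only 2 pairs, so whether its numbers pair libraries is not known. Members with a MYC region in both DMSO libraries numbered 7 at a score of at least 50. With a single DMSO library, members with a region numbered 16 to 26. Precision is limited by 2 or 3 libraries a group.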

Other observations

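Start sites of 15 of the 74 tested members lay within 1000 bases of the start site of another gene on the opposite strand, in the head-to-head layout, against 10.7% of all genes tested. MRPL46 and MRPS11 form such a pair with each other, 63 bases apart. Their log2 fold changes in DTMYC RNA were -0.11 (SE 0.08) and -0.06 (SE 0.11), neither past the threshold. MRPL36 lies 41 bases from NDUFS6 and MRPL47 41 bases from NDUFB5, both subunit genes of respiratory complex I, and MRPS12 lies 181 bases from SARS2, the mitochondrial seryl-tRNA synthetase gene.

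In RefSeq promoters on GRCh38, running from 250 bases before to 50 bases after the start, 65 members were matched, against 9765 promoters of genes tested. CCGGAAG, searched on both strands, was in 41.5% of member promoters and 18.4% of all, with 39.5% in MRPL and 44.4% in MRPS promoters. GCGCATGCG, a core of sites for NRF1, was in 4.62% of member promoters and 3.65% of all. CACGTG was in 7.69% and 10.1%. The median GC content was 60.3% in member promoters and 65.3% in all. These counts describe letters in the window and were not tested.

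Genes of mitochondrial transcription and RNA processing also differed between lines, as did most genes, since 36% of all genes tested were higher and 37.3% lower in DTMYC cells in DMSO. Of 14 tested, 12 were higher and 2 lower in DTMYC than in parental cells in DMSO, with a median log2 fold change of 0.99, while 19 members were higher and 37 lower, with a median of -0.27. Of 20 genes of mitochondrial translation 10 were higher and 5 lower, with a median of 0.33.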
